A study of Homo sapiens with 12 samples.

Results

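The genes described here are the MAGE, PAGE, GAGE, XAGE, SSX, CTAG, and SPANX families of cancer-testis antigens in U2OS cells, a human osteosarcoma line. They were taken by symbol, as every row whose name begins with MAGEA to MAGEF, or with PAGE, GAGE, XAGE, SSX, or CTAG and a digit, or with SPANX, which gave 95 of the 25369 genes counted. The families were selected on the levels of MAGEB17 and PAGE2B, which differed between the lines in these same data. The values of these 2 genes are therefore given as a description without p-values. Where the closing sections count calls that include them, that part is a description too. RNA-seq had been carried out on 4 Tet-On U2OS lines, with 3 biological replicates of each and 12 samples in all. The lines carried the empty pTRE vector, wild-type (WT) E2F1, R109K, an E2F1 derivative in which the arginine methylated by PRMT1 is a lysine, or KK, in which the pair of arginines methylated by PRMT5 are lysines. All 4 lines, pTRE included, were treated with 1 μg/ml doxycycline for 24 hours, which turns on the construct, and all kept their endogenous E2F1. Each construct was represented by 1 stable line grown under G418 and hygromycin B, so a difference between constructs cannot be told apart from a difference between lines, and the sources used here do not say whether a line was a single clone.

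Cancer-testis antigens are made in the germ cells of the testis and are silent in most other adult tissues, but many tumors switch them on. Most of their genes lie on the X chromosome, often as near-identical copies, and methylation of CpG sites in the promoter is a well-known part of their silencing. MAGE proteins bind RING-type ubiquitin ligases, and the MAGEA, MAGEB, and MAGEC genes are the germ line-restricted ones, whereas MAGED, MAGEE, and MAGEF genes are active in many tissues.

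As a check that separates pTRE from the E2F1 lines, though not WT, R109K, and KK from each other, E2F1 was measured first. Its normalized level, in counts per 1e6 reads on genes (CPM), was 91.2 ± 9.43 in pTRE, 1811 ± 445 in WT, 1158 ± 196 in R109K, and 1316 ± 187 in KK (mean ± SD, n = 3). A sample held between 11500537 and 31040903 reads on genes, and 3 reads, the limit that a count of 0 allows, corresponded to between 0.0972 and 0.241 CPM. WT replicate 2 stood apart, with 31.2% of its reads on genes and 58.7% assigned to no counted feature. The mesenchymal gene VIM was between 1150 and 1793 CPM in every sample, whereas COL1A2 was at most 0.588 CPM. Among germ cell markers, DPPA3 had 0 reads in every sample, DDX4 was at most 0.164 CPM, and the 10 markers summed to between 0.661 and 4.10 CPM.

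The promoters of a few members are shown because promoter CpG sites are central to what is known of these genes. The first pair belongs to the near-identical neighbors PAGE2B and PAGE2, and the second pair to the 2 listed starts of MAGED1, which was called lower in all 3 E2F1 lines. Each is the 250 bases before the start of transcription, from RefSeq on GRCh38.p14, with CpG sites in capitals.
PAGE2B, chrX:55074780-55075029, + strand: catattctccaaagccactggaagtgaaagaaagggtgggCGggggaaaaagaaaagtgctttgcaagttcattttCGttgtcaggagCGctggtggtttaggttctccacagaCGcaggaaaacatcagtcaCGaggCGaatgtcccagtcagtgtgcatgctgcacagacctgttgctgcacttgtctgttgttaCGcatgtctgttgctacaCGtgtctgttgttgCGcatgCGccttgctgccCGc
PAGE2, chrX:55088768-55089017, + strand: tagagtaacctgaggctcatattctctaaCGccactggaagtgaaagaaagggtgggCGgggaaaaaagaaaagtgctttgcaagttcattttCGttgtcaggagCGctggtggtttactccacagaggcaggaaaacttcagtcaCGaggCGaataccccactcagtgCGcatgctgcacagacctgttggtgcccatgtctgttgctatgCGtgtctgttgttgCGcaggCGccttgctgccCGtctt
MAGED1, chrX:51802826-51803075, + strand: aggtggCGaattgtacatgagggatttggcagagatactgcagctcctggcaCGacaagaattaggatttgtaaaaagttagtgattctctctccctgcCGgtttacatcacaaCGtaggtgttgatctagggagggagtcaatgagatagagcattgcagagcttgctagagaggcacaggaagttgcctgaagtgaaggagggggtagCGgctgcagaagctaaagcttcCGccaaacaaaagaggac
MAGED1, chrX:51893373-51893622, + strand: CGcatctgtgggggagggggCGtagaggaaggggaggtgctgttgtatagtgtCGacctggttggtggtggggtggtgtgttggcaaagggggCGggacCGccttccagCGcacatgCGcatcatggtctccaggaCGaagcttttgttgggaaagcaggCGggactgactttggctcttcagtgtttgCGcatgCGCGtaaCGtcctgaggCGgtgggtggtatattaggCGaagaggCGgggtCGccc
PAGE2B and PAGE2 each held 11 CpG sites, and 217 of 230 aligned bases were identical (94.3%). The windows of MAGED1 held 6 and 17 sites. In windows from 250 bases before to 50 bases after the start, 68 members had an entry, of which 17 were tested. The E2F motif, spelled TTTCCCGC, TTTCGCGC, TTTGCCGC, or TTTGGCGC on either strand, was found in 7 of the 68 members (10.29%) and in 3.99% of all 27305 genes. These 7 were MAGEE2, SSX1, SSX2, SSX2B, SSX4, SSX4B, and SSX5, and none had enough reads to be tested. SSX2 and SSX2B are near-identical copies, as are SSX4 and SSX4B, so the 7 are not independent of each other. The motif was found in 0 of the 17 tested members with an entry. The motif CCGGAA, searched on both strands, was in 5 of these 17 (29.41%), in 7 of the 68 members (10.29%), and in 20.1% of all genes. In the 250 bases before the start alone, it was in 3 of the 17 (17.65%), in 5 of the 68 (7.35%), and in 17.19% of all genes. A match or its absence describes the letters of this window only.

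Reads on these families were concentrated in a small number of genes. Of the 95 rows, 48 had 0 reads in all 12 samples, 25 had 1 to 49 reads in all, and 22 had 50 or more. edgeR's filter on low counts kept 20 rows, which were tested among 16625 genes. The MAGEA family had 8 tested rows of 13, MAGEB 2 of 10, MAGEC 1 of 3, MAGED 2 of 4, MAGEE 1 of 2, MAGEF 1 of 1, PAGE 2 of 6, and XAGE 1 of 6. The 22 GAGE rows shared 13 reads over all samples, with 18 rows at 0. The 11 SSX rows shared 9 reads, the 3 CTAG rows 14, and the 10 SPANX rows 130, and none of these was tested. SPANXN3 was the SPANX row with the most reads, between 0 and 11 in a sample. MAGEB3, between 0 and 11 reads in a sample, had at least 50 reads in all and was not tested either. The remaining tested rows were SSX2IP, which encodes a protein that binds SSX2 and is not an SSX gene, and MAGEA8-AS1, an RNA beside MAGEA8 on the opposite strand.

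**Figure D1:**
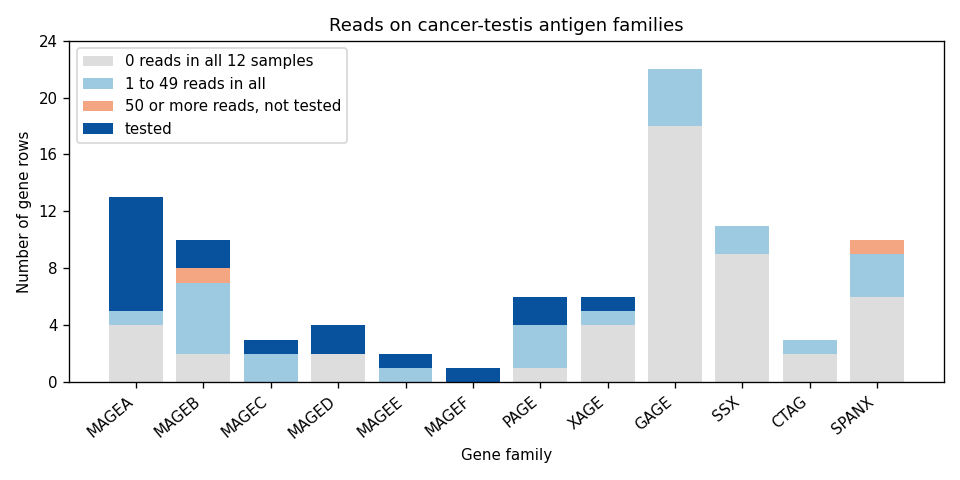
Number of gene rows in each family (vertical axis), stacked by the reads they received over the 12 samples. GAGE, SSX, CTAG, and SPANX have no tested row, and MAGEA has 8 of 13.

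A count of 0 has a limit for near-identical copies, since reads that aligned to several places were not counted, and these were between 8.59% and 9.60% of reads in a sample. Uniqueness was measured as the share of 50-base windows of a gene's transcripts found in no other gene. Of 39 rows at 0 that could be scored, 29 had under 50% unique windows, and their median was 3.7%, while 6 had over 90%. In the 20 tested rows the median was 99.35%, and 14 had over 90%. Counts of MAGEA2 (4.1% unique), MAGEA6 (38.4%), MAGEA3 (48.1%), PAGE2B (50.9%), PAGE2 (60.8%), and MAGEA12 (88.8%) are therefore uncertain. Of the 84 rows matched to the GENCODE annotation of GRCh37, 82 lay on the X chromosome, with MAGEF1 on chromosome 3 and SSX2IP on chromosome 1 as the exceptions.

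Per kilobase of exon, PAGE2 had the highest level of these genes in pTRE, at 168 CPM per kb, followed by MAGEA4 at 131, PAGE2B at 111, MAGEA1 at 83.9, and MAGED2 at 83.2. In WT the order began with PAGE2 at 93.3 CPM per kb, MAGEA4 at 85.4, and MAGEA1 at 67.8, and PAGE2B was at 46.4. MAGEB17 was the lowest tested member in pTRE, at 0.260 CPM per kb, and was at 2.92 in R109K.

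**Figure D2:**
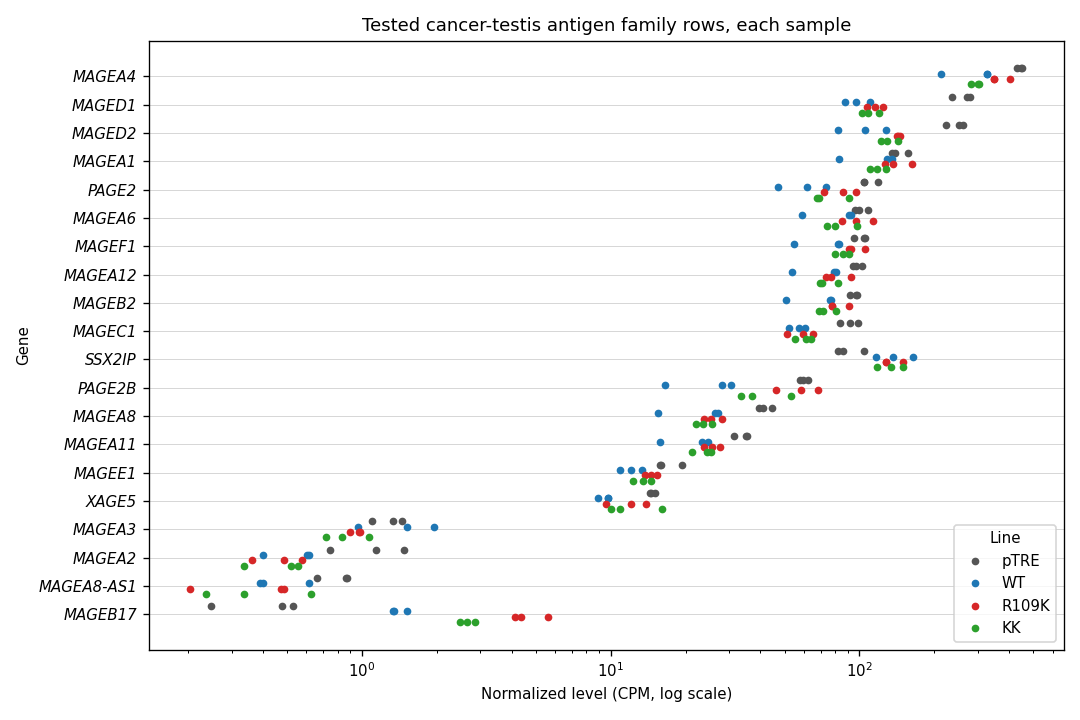
Normalized level (CPM, log scale, horizontal axis) of the 20 tested rows in each sample, with 1 point per sample colored by line and genes ordered by their mean in pTRE. MAGED1 and MAGED2 lie higher in the 3 pTRE samples than in any E2F1 sample, and MAGEB17 lies lower.

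Summed over all 95 rows, the level was 1951 ± 74.9 CPM in pTRE, 1252 ± 243 in WT, 1544 ± 97.7 in R109K, and 1361 ± 80.0 in KK (SD, n = 3). This total is not of germ line-restricted genes alone. The MAGED rows, active in many tissues, made up 507 CPM of it in pTRE, 203 in WT, 259 in R109K, and 241 in KK. The MAGEA rows made up 863, 602, 738, and 619 CPM in the same order. SSX2IP, not an SSX gene, made up 90.6, 139, 135, and 134 CPM. Fewer reads from a family in a bulk sample can mean less RNA per cell or fewer cells that express it, and these cannot be told apart. In WT replicate 2 the sum over all 95 rows was 971 CPM, against 1378 and 1406 in the other WT samples. Of the 20 tested rows, 17 were lowest of the 3 WT samples in replicate 2, as were 43.2% of all tested genes. The part of that library in the results below was not tested beyond leaving it out.

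Over the 18 tested rows other than MAGEB17 and PAGE2B, the median log2 fold change against pTRE was −0.62 in WT, −0.34 in R109K, and −0.52 in KK. The median of all tested genes was 0.0022, −0.00074, and −0.0091 in the same comparisons. In WT 16 of the 18 rows were below 0, in R109K 17, and in KK 17. Without WT replicate 2, the median in WT was −0.49, with 16 rows below 0. The 3 comparisons share the pTRE samples, so they are not independent of each other. Other genes of the X chromosome were near 0, with medians over 502 tested genes of −0.0997 in WT, −0.041 in R109K, and −0.083 in KK.

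**Figure D3:**
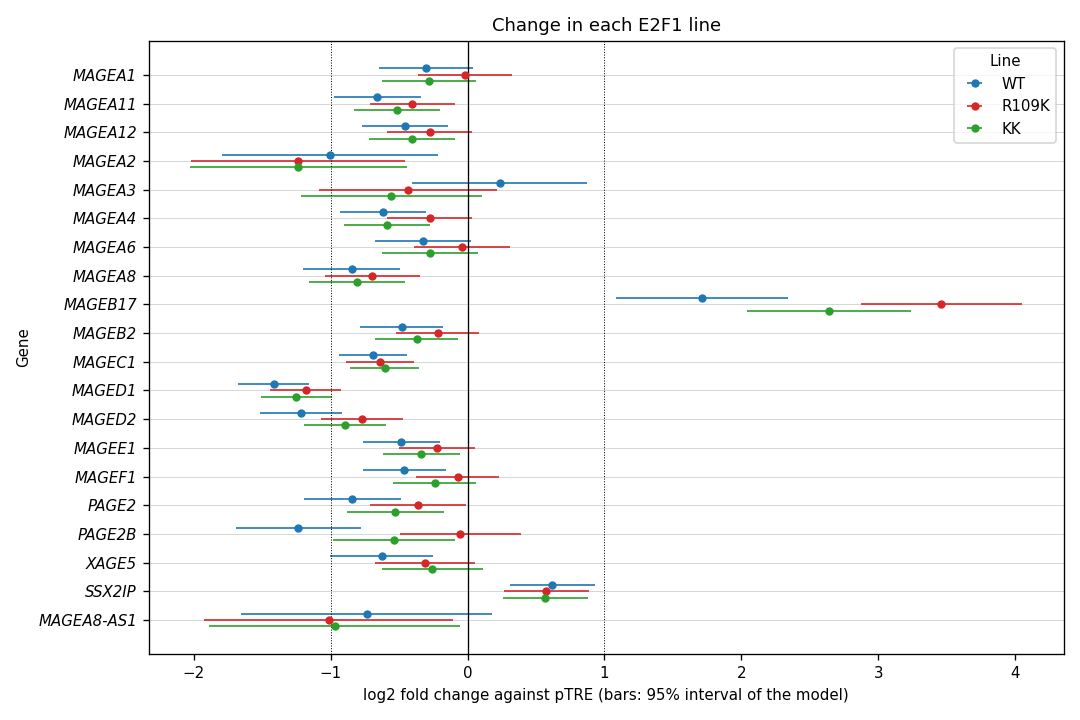
Log2 fold change against pTRE (horizontal axis) for the 20 tested rows in WT, R109K, and KK, with bars for the 95% interval of the model and dotted lines at a 2-fold change. MAGEB17 and SSX2IP lie to the right of 0 in all 3 lines, and MAGED1 is the only row beyond the left dotted line in all 3 that passed the test.

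A change was called at an adjusted p under 0.01 (edgeR's quasi-likelihood test, Benjamini-Hochberg) and a difference over 2-fold. Counts are given for the 18 tested rows that the selection did not use, beside the share of all tested genes called. In WT against pTRE, 0 were called higher (7.89% of all tested genes) and 2 lower, MAGED1 and MAGED2 (3.93%). In R109K against pTRE, 0 were called higher (4.64%) and 1 lower, MAGED1 (2.56%). In KK against pTRE, 0 were called higher (7.01%) and 1 lower, again MAGED1 (3.9%). DESeq2 gave the same counts. At an unadjusted p under 0.05 in either direction, 14 of the 18 passed in WT (49% of all tested genes), 9 in R109K (38.6%), and 13 in KK (45.6%).

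Between E2F1 lines, 0 of the 18 rows were called by edgeR or DESeq2. The shares of all tested genes called were 0.0962% higher and 0.247% lower in R109K against WT, 0% and 0.00602% in KK against WT, and 0.0421% and 0.0481% in R109K against KK. At an unadjusted p under 0.05, 5 of the 18 passed in R109K against WT (22.3% of all tested genes), 2 in KK against WT (8.51%), and 0 in R109K against KK (12.4%).

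The called members that had no part in the selection were both MAGED genes, which are active in many normal tissues. MAGED1, a partner of several signaling receptors that is located at chrX:51546103-51645450 (GRCh37, plus strand), was at 271, 236, and 278 CPM in pTRE. It was at 96.8, 87.1, and 110 CPM in WT, at 107, 115, and 124 in R109K, and at 108.5, 119, and 102 in KK. All 9 E2F1 samples lay below the 3 pTRE samples. MAGED1 fell 2.67-fold in WT (log2 fold change −1.42, SE 0.12, adjusted p = 4.99e-07 by edgeR). It fell 2.27-fold in R109K (log2 fold change −1.18, SE 0.12, adjusted p = 5.03e-06) and 2.38-fold in KK (log2 fold change −1.25, SE 0.12, adjusted p = 1.59e-06). Between E2F1 lines MAGED1 passed no test. The log2 difference from WT was 0.23 in R109K (95% interval −0.022 to 0.49) and 0.17 in KK (95% interval −0.091 to 0.42).

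MAGED2, which acts in salt reabsorption in the kidney and lies at chrX:54834032-54842448 (GRCh37, plus strand), followed a similar course. Its level was 252, 222, and 260 CPM in pTRE, and 105, 82.3, and 128 CPM in WT. It was at 143, 142, and 145 CPM in R109K and at 130, 143, and 122 CPM in KK, again below every pTRE sample. MAGED2 fell 2.33-fold in WT (log2 fold change −1.22, SE 0.14, adjusted p = 9.13e-06 by edgeR). It was 1.71-fold lower in R109K (adjusted p = 7.47e-04) and 1.86-fold lower in KK (adjusted p = 1.47e-04), both short of the 2-fold threshold. The log2 difference of R109K from WT was 0.45 (95% interval 0.15 to 0.74, adjusted p = 0.0904 by edgeR) and did not pass. The other 2 MAGED rows had 0 reads.

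The germ line-restricted MAGEA genes, on the long arm of the X chromosome, made up the largest family by level. Their sum was 896, 856, and 837 CPM in pTRE, 679, 440, and 685 in WT, 707, 826, and 682 in R109K, and 614, 661, and 581 in KK. All 9 E2F1 samples lay below the lowest pTRE sample. MAGEA4, their most abundant member and a target of T cell therapies, was at 451, 446, and 431 CPM in pTRE. In WT it was at 325, 212, and 326 CPM, in R109K at 346, 402, and 346, and in KK at 299, 302, and 282. MAGEA4 was 1.54-fold lower in WT (adjusted p = 0.00365 by edgeR) and 1.503-fold lower in KK (adjusted p = 0.00543), below the 2-fold threshold, and its adjusted p in R109K was 0.180. MAGEA4 took between 20.9% and 24.3% of the reads of these families in every sample.

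MAGEA8 was between 39.5 and 44.4 CPM in pTRE and between 15.5 and 28.01 CPM in the 9 E2F1 samples. It was 1.80-fold lower in WT (adjusted p = 8.78e-04 by edgeR), 1.62-fold lower in R109K (adjusted p = 0.00500), and 1.75-fold lower in KK (adjusted p = 0.00123). MAGEA11, a coregulator of the androgen receptor, was 1.58-fold lower in WT (adjusted p = 0.00253), and its adjusted p was 0.0518 in R109K and 0.0122 in KK. MAGEA12, MAGEA1, and MAGEA6 had log2 fold changes between −0.46 and −0.021 in the 3 lines and did not pass. MAGEA2 was near the limit of counting, between 0.336 and 1.48 CPM in all samples, with log2 fold changes of −1.01 in WT, −1.24 in R109K, and −1.24 in KK and adjusted p-values from 0.0164 to 0.0413. In R109K it passed when only the 6 samples compared were fitted (log2 fold change −1.25, adjusted p = 0.00874 by edgeR). MAGEA3 was between 0.720 and 1.96 CPM, with a log2 fold change of 0.23 in WT. It took between 0.735% and 2.08% of the reads counted on either MAGEA3 or MAGEA6. MAGEA8-AS1 was between 0.205 and 0.874 CPM in all samples and passed in no line.

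Of the other restricted MAGE genes, MAGEC1 was at 92.0, 98.6, and 83.3 CPM in pTRE and between 51.2 and 64.9 CPM in the 9 E2F1 samples. It was 1.62-fold lower in WT (adjusted p = 2.94e-04 by edgeR), 1.56-fold lower in R109K (adjusted p = 7.94e-04), and 1.52-fold lower in KK (adjusted p = 8.67e-04). MAGEB2 was between 91.5 and 97.8 CPM in pTRE, and its log2 fold change was −0.48 in WT (adjusted p = 0.0144), −0.22 in R109K, and −0.37 in KK. MAGEE1 was between 15.8 and 19.4 CPM in pTRE and 1.40-fold lower in WT (adjusted p = 0.00917), which did not hold without WT replicate 2 (adjusted p = 0.0162). MAGEF1, a regulator of the cytosolic iron-sulfur assembly pathway, was at 101 CPM in pTRE and 73.2 in WT and passed in no line. XAGE5 was between 14.4 and 15.1 CPM in pTRE, with log2 fold changes of −0.63 in WT (adjusted p = 0.0106), −0.31 in R109K, and −0.26 in KK.

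At an adjusted p under 0.01 with no limit on the fold, a threshold chosen after seeing the data, 8 of the 18 rows not used in the selection were lower in WT, where 11.4% of all tested genes were. In R109K 4 rows were lower (7.23% of all tested genes), and in KK 5 rows were lower (10.7%). Without WT replicate 2, the count in WT was 7. In each line 1 of the 18 was higher, SSX2IP, beside 14.8% of all tested genes in WT, 10% in R109K, and 13.8% in KK. SSX2IP, which takes part in anchoring microtubules at the centrosome, was between 81.7 and 104 CPM in pTRE and between 116 and 164 CPM in the E2F1 samples. It was 1.54-fold higher in WT (adjusted p = 0.00351 by edgeR), 1.49-fold higher in R109K (adjusted p = 0.00807), and 1.48-fold higher in KK (adjusted p = 0.00655).

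MAGEB17 lies at chrX:16185604-16189587 (GRCh37, plus strand), apart from the other members, and 100% of its windows were unique. It was at 0.248, 0.532, and 0.478 CPM in pTRE, from 6 to 14 reads, and at 1.35, 1.53, and 1.34 CPM in WT. It was at 2.49, 2.64, and 2.84 CPM in KK, and at 4.38, 4.14, and 5.61 CPM in R109K, from 114 to 137 reads. The 4 lines did not overlap, and the order was pTRE, WT, KK, and R109K. Against pTRE, the log2 fold change was 1.71 (SE 0.30) in WT, 3.46 (SE 0.28) in R109K, and 2.64 (SE 0.28) in KK. Between E2F1 lines, R109K exceeded WT by 1.75 (SE 0.25) and KK by 0.82 (SE 0.23) on the log2 scale. With 6 to 14 reads in pTRE, MAGEB17 was near the limit of the filter on low counts there, and its reads in the E2F1 lines helped it to pass. Its difference from pTRE is therefore not independent of that filter. Mean E2F1 was also lowest in pTRE, but among the E2F1 lines its order was the reverse, with WT highest (1811 CPM), KK next (1316), and R109K last (1158). The samples of neighboring lines overlapped for E2F1, with ranges of 1469 to 2315 CPM for WT, 1112 to 1478 for KK, and 932 to 1283 for R109K. Whether the E2F1 level had a part in the MAGEB17 order was not tested.

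The gene next to MAGEB17 was examined after the values of both were seen, so its values too are a description without p-values. GRPR, the receptor for gastrin-releasing peptide, is not a cancer-testis antigen, and it lies on the same strand and ends 13963 bases before MAGEB17, at chrX:16141688-16171641. Its level was 0.413, 0.266, and 0.478 CPM in pTRE, 0.926, 1.28, and 0.795 CPM in WT, 1.80, 1.73, and 1.82 CPM in KK, and 3.44, 3.38, and 4.71 CPM in R109K. The 4 lines stood in the same order as for MAGEB17 and did not overlap. The log2 fold change of GRPR against pTRE was 1.32 in WT (SE 0.33), 3.30 in R109K (SE 0.30), and 2.19 in KK (SE 0.31), and R109K exceeded WT by 1.98 (SE 0.28). With 7 to 13 reads in pTRE, GRPR was also removed by a minimum of 10 counts in every sample. AP1S2, the tested gene before GRPR, was higher at less than 2-fold in all 3 lines, with log2 fold changes against pTRE of 0.75 in WT (adjusted p = 2.28e-04 by edgeR), 0.66 in R109K (adjusted p = 9.67e-04), and 0.72 in KK (adjusted p = 3.22e-04). CTPS2, the tested gene after MAGEB17, had 0.46 in WT, 0.50 in R109K, and 0.48 in KK, with adjusted p-values from 0.0447 to 0.0506. RefSeq's table had no promoter entry for MAGEB17.

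**Figure D4:**
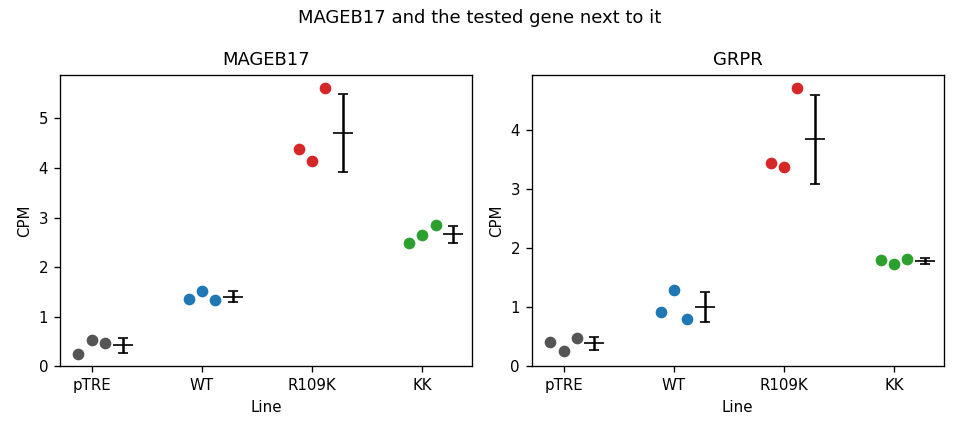
Level (CPM, vertical axis) of MAGEB17 and GRPR in each sample by line, with black marks for the mean and bars for 1 SD (n = 3). Both genes are lowest in pTRE, at 0.419 and 0.386 CPM on average, and highest in R109K, at 4.71 and 3.84 CPM.

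PAGE2B and PAGE2 lie on the same strand at chrX:55101463-55105342 and chrX:55115451-55119275 (GRCh37), 10109 bases apart. PAGE2B was at 62.2, 59.1, and 57.8 CPM in pTRE, and at 28.1, 16.5, and 30.6 CPM in WT. It was at 46.4, 68.1, and 58.2 CPM in R109K and at 33.5, 53.3, and 36.9 CPM in KK. WT did not overlap with any other line, whereas R109K overlapped with pTRE and with KK. The log2 fold change against pTRE was −1.24 (SE 0.21) in WT, −0.053 (SE 0.21) in R109K, and −0.54 (SE 0.21) in KK, and R109K exceeded WT by 1.18 (SE 0.21). Without WT replicate 2 the last difference was 0.97, under 2-fold.

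PAGE2, which was not used in the selection, was at 119, 105, and 104 CPM in pTRE, 61.8, 47.1, and 73.3 in WT, 71.8, 97.1, and 86.3 in R109K, and 68.8, 91.2, and 67.4 in KK. All 9 E2F1 samples lay below the pTRE samples. PAGE2 was 1.79-fold lower in WT (adjusted p = 9.78e-04 by edgeR), while its adjusted p was 0.120 in R109K and 0.0208 in KK. Without WT replicate 3 it passed the 2-fold threshold in WT (log2 fold change −1.01, adjusted p = 5.02e-04). That fit keeps WT replicate 2, the library that stood apart. Without WT replicate 2 the log2 fold change of PAGE2 in WT was −0.70 (adjusted p = 0.00285 by edgeR), under 2-fold. R109K exceeded WT by 0.48 on the log2 scale (95% interval 0.13 to 0.84, adjusted p = 0.118), which did not pass. Of the reads on this pair, PAGE2B took 34.3%, 36.1%, and 35.7% in pTRE and 31.2%, 26.0%, and 29.5% in WT. The share was 39.2%, 41.2%, and 40.3% in R109K and 32.7%, 36.9%, and 35.4% in KK. R109K had the highest share and WT the lowest, with no overlap with the other lines, as a description that includes PAGE2B itself.

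**Figure D5:**
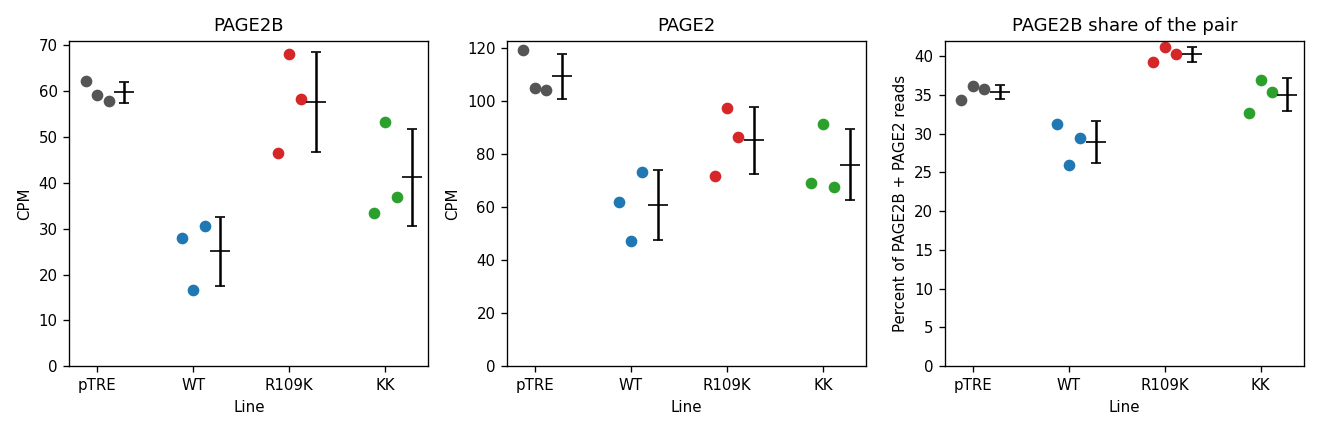
Level (CPM) of PAGE2B and PAGE2 and the percentage of the pair's reads on PAGE2B, in each sample by line, with black marks for the mean and bars for 1 SD (n = 3). The share of PAGE2B averages 28.9% in WT and 40.2% in R109K.

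Lists of related genes were set beside the families. Of 56 other cancer-testis antigens, 53 were in the counts, 10 of these had 0 reads, and 23 were tested. None was called higher against pTRE in any line by edgeR or DESeq2, and 1 was lower in WT (3.93% of all tested genes), 2 in R109K (2.56%), and 1 in KK (3.9%). At an unadjusted p under 0.05 in either direction, 10 passed in WT, 7 in R109K, and 9 in KK, beside 49%, 38.6%, and 45.6% of all tested genes. HORMAD1, a protein of meiotic chromosome axes, was between 11.3 and 14.2 CPM in pTRE and fell by 1.12 in WT, 1.24 in R109K, and 1.44 in KK on the log2 scale (adjusted p = 4.66e-04, 2.93e-04, and 5.68e-05 by edgeR). PLAC1, a placental antigen, fell by 1.59 in R109K (adjusted p = 0.00580). The median of the 23 was −0.23 in WT, −0.33 in R109K, and −0.24 in KK on the log2 scale. Of 10 tested genes that are linked to proliferation and also catalogued as cancer-testis antigens, 1 was called, OIP5, higher in KK (7.01% of all tested genes). OIP5 rose by 1.06 on the log2 scale (adjusted p = 1.46e-05 by edgeR). In WT and R109K 0 of the 10 were called higher (7.89% and 4.64% of all tested genes). At an unadjusted p under 0.05 by edgeR, 6 passed in WT, 9 in R109K, and 7 in KK, all of them higher. These stand beside 49%, 38.6%, and 45.6% of all tested genes in either direction. The median of the list was 0.51 in WT, 0.62 in R109K, and 0.56 in KK on the log2 scale.

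Of 11 tested genes among other MAGE family genes and the RING ligase partners of MAGE proteins, TRO was the 1 called, lower in WT (3.93% of all tested genes). TRO is a MAGE family gene that starts 104447 bases after MAGED2, and it was between 86.9 and 101 CPM in pTRE and between 41.0 and 53.6 CPM in the E2F1 samples. It fell by 1.03 in WT on the log2 scale (adjusted p = 5.66e-06 by edgeR), and was at −0.98 in R109K and −0.84 in KK. All 16 genes of the DNA methylation and silencing list were tested, with 0 called against pTRE in any line by edgeR or DESeq2, 5, 5, and 7 at an unadjusted p under 0.05 in WT, R109K, and KK (49%, 38.6%, and 45.6% of all tested genes), and medians of 0.022 in WT, 0.018 in R109K, and −0.016 in KK.

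The summed levels of the marker lists also differed from pTRE, through some of their genes. The 7 mesenchymal genes summed to between 6545 and 7834 CPM in pTRE and between 2520 and 3582 CPM in the E2F1 samples. Of 6 tested, 3 were called lower in WT (3.93% of all tested genes), 2 in R109K (2.56%), and 3 in KK (3.9%). Most of the difference was in COL1A1, at 3557 CPM in pTRE and 567 in WT on average, and SPARC, at 1613 and 626 CPM, while VIM passed in no line (log2 fold changes of −0.25, 0.089, and −0.059). The 7 epithelial genes summed to between 786 and 975 CPM in pTRE and between 371 and 668 CPM in the E2F1 samples, with KRT19 at most 0.107 CPM. Of 5 tested, KRT8 and CLDN4 were called lower in WT, and CLDN4 alone in R109K and KK, beside the same shares of all tested genes. EPCAM and KRT18 passed in no line. Of the 10 germ cell markers 3 were tested, SYCP3, PIWIL1, and ACR, with median log2 fold changes of 1.05 in WT, 0.99 in R109K, and 0.89 in KK and adjusted p-values from 0.0181 to 0.966 by edgeR. The part of these markers in the lower levels of MAGED and MAGEA genes was not tested.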

How the data were processed

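RNA-seq counts of 12 samples, 3 biological replicates of each of 4 U2OS lines, were used. According to the methods and the submitters' processing notes, reads were trimmed with Trim Galore 0.4.3 and aligned to hg19 with STAR 2.5.1. The authors deposited raw counts of reads per gene symbol, without normalization, with summary lines of the kind htseq-count writes. The annotation version and the strand setting of the counting are not given in the sources used here.

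The test was that of edgeR 4.0.16, run in R 4.3.3. After filterByExpr and TMM normalization, genes were fitted in 1 quasi-likelihood model of all 12 samples with a mean for each line, and p-values were adjusted by Benjamini-Hochberg over 16625 genes. Calls needed an adjusted p under 0.01 and a change over 2-fold. CPM values use TMM library sizes. Positions come from GENCODE v44 lifted to GRCh37, and 84 of 95 symbols matched. The procedure was tested on simulated data. The members and lists were chosen with earlier results of these data known. Named were members called in any comparison, the highest member of each family with at least 50 reads, near-identical copies, other tested members by direction, up to 3 called genes per list, and, after their values were seen, GRPR and others outside this rule. Alternatives were DESeq2 1.42.0, RLE normalization, no filter, a minimum of 10 counts, a replicate block, glmTreat, the 6 samples compared, an adjusted p under 0.05, and leaving out each replicate.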

Additional observations from a re-analysis of the deposited data

Results flagged for a closer look

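A difference between 2 E2F1 lines, in their change from pTRE, was found for MAGEB17, which was higher in R109K than in WT by 1.75 on the log2 scale, for PAGE2B, which was higher by 1.18, and for GRPR, the gene next to MAGEB17, which was higher by 1.98. All 3 R109K samples exceeded all 3 WT samples in each gene. MAGEB17 and PAGE2B were selected on these data and GRPR was picked after its values were seen, so these are descriptions and not independent tests. Over 12 alternatives the log2 difference of GRPR between R109K and WT ranged from 1.81 to 2.14. It missed the threshold for a call in 6 of the 12, among them the 6 samples alone and the fits without any 1 R109K replicate.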

How the results depend on the processing

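The counts of calls below include MAGEB17 and PAGE2B, which the families were selected on, so their part is a description. The number of members called in WT against pTRE was 4, and it was 1 (MAGED1) when tested against a 2-fold change with glmTreat, and 11 at any fold. In R109K against pTRE and KK against pTRE it was 2 and 2, and it was 1 (MAGED1) with a minimum of 10 counts, which removed MAGEB17, 1 (MAGEB17) with glmTreat, and 6 and 7 at any fold. Under glmTreat the adjusted p was 0.259 for MAGED2 in WT, 0.460 for MAGED1 in R109K, and 0.120 for MAGED1 in KK. At an adjusted p under 0.05, MAGEA2, near the limit of counting, was also called lower against pTRE. Its adjusted p by edgeR was 0.0413 in WT, 0.0196 in R109K, and 0.0164 in KK. In R109K against WT the count of 2, made up of MAGEB17 and PAGE2B alone, was 1 with a minimum of 10 counts (PAGE2B), 0 with glmTreat, and 0 in the 6 samples alone. It ranged from 0 to 2 when 1 replicate was left out, being 0 without WT replicate 1 or any R109K replicate and 1 (MAGEB17) without WT replicate 2. The cause was not tested.

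Replicate numbers did not pair the samples (mean correlation of deviations 0.0436 over 18 pairs, from −0.295 to 0.470). With the replicate block, the count in R109K against WT was 1 (MAGEB17), and no other count of calls changed.

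The log2 fold change turned in direction for 4 members when 1 replicate was left out: MAGEA1 in R109K against pTRE (0.0438 without pTRE replicate 1, 0.00179 without R109K replicate 1, 0.0535 without R109K replicate 3, and otherwise down to −0.130 without R109K replicate 2), MAGEA6 in the same comparison (0.00811 without pTRE replicate 1, 0.0494 without R109K replicate 3, down to −0.155 without R109K replicate 2), MAGEA3 in WT against pTRE (from −0.0215 without WT replicate 1 to 0.43 without WT replicate 2), and PAGE2B in R109K against pTRE (from −0.19 without R109K replicate 2 to 0.0764 without R109K replicate 1). For GRPR in WT against pTRE, picked after its values were seen and so a description, the log2 fold change ranged from 1.11 to 1.51. It missed the threshold for a call in 6 of 12 alternatives. Of 996 alternative values, 971 were scored as unchanged. For MAGEB17 and PAGE2B this meant the same direction and a value within the combined SD of the lines compared. Their side of the threshold was not scored, and it changed in R109K against WT as given above. For the other genes it meant the same direction and the same side of the threshold. Rows far from the 2-fold threshold could hardly change side, and glmTreat returns the log2 fold changes of the main fit. The count of 971 is therefore no measure of how stable the values are. Rows near 1 CPM, such as MAGEA2 and MAGEA3, are limited by depth.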
